A study of Mus musculus with 14 samples.

Results

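Liver that is removed in part grows back by division of the cells that remain, and the step described here is the one from 36 h to 48 h after partial hepatectomy (PHx), an operation that takes out a portion of the organ. It was taken as the difference of log2 intensity, per probe set, between the 2 arrays of mouse liver at 48 h and the 2 arrays at 36 h. These are 4 of the 14 arrays of the series, which also holds liver at 4, 8, 12 and 72 h and normal liver, 2 arrays each. All arrays carry total RNA of whole liver on a 1-colour platform with a biotin label. Each RNA extraction drew on a pool of 4 to 6 livers, and the sources used here give no strain, sex, age or time of day. Whether the 2 arrays of a time stand for separate pools is not stated, so the p-values cover the spread between arrays only, and that spread may be technical. Normal liver does not enter the difference.

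In the regenerating mouse liver, hepatocytes leave quiescence in a partly synchronous wave. S phase, in which DNA is copied by the MCM helicase and the DNA polymerases, comes before mitosis, in which cyclin B with the kinase Cdk1 drives entry and the anaphase-promoting complex with its activator Cdc20 drives exit. Many genes of the second part of the cycle are transcribed late, in G2 and mitosis, through promoter elements named CHR and CCAAT. Dividing hepatocytes also accumulate lipid for a time, and membrane growth draws on cholesterol made from acetyl-CoA through the mevalonate pathway, whose enzymes are transcribed together by SREBP-2.

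The table holds 22690 probe sets, and 13576 of them (8453 genes) passed the filter on dim signal and were tested. Of these, 28 were called higher at 48 h (0.206%) and 35 lower (0.258%), or 63 in all (0.464%), at an adjusted p under 0.05 in limma. The 47 genes they name include 2 main blocks, and 14 of the 47 are in no list. Higher at 48 h were 13 genes of mitotic entry, anaphase, the kinetochore and the spindle, between 1.5 and 2.53 in log2 over the brightest probe set of each. Lower at 48 h were 8 enzymes of cholesterol synthesis, by 1.19 to 2.15, and single genes of other lists, with the estrogen sulfotransferase Sult1e1 at the largest difference. Genes of DNA replication passed the test in neither direction.

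Array quality touches every call below. The median intensity was 233 and 164 on the 48 h arrays and 164 and 174 on the 36 h arrays, and intensities correlated across tested probe sets at 0.942 between the 48 h arrays and at 0.948 between the 36 h arrays, beside 0.910 to 0.960 for a 48 h array with a 36 h array, so the closest pair across the times was more alike than either replicate pair. The 5′ signal of pyruvate carboxylase, a check on RNA integrity, was 0.459 and 0.573 of the 3′ signal at 48 h, against 0.584 and 0.105 at 36 h, so the second 36 h array stands apart. That array also carried pancreatic transcripts, such as the digestive enzyme Cpa1, with intensities of 11.1 and 16.2 at 48 h against 7.0 and 4040.0 at 36 h. Of 25 tested acinar genes 23 had their highest value of the 4 arrays there, and 0 were called.

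The number of calls changed with the arrays in the fit. None of the 63 called probe sets had arrays that overlapped between the times, so leaving out 1 array could not change a sign. Over all tested probe sets 21.6% had both 48 h arrays above both 36 h arrays, and 18.4% had both below. Lack of overlap in a called gene, as given below, therefore adds no support to its call. Without the second 36 h array 1 probe set was called, for Cdc20, although all 63 differences kept their sign and 62 were still at least 2-fold. Without the first 48 h array 19 were called, and without the second 3. With only the 4 arrays in the fit 1 was called, for Sult1e1, and without either 12 h array 117 were called. Of the 47 called genes 16 had another tested probe set, and for 7 of them another was called in the same direction. The median difference over all tested probe sets was 0.06. Without a test, 178 probe sets (1.31%) were at least 2-fold higher at 48 h and 228 (1.68%) at least 2-fold lower.

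Mitotic entry is driven by cyclin-dependent and Polo-like kinases. Of 20 tested genes of this list 4 rose and 0 fell, with a median log2 difference of 1.03 beside 0.06 for all genes tested. Cyclin B2 (Ccnb2), a partner of Cdk1, had intensities of 1026 and 1177 at 48 h, against 247 and 254 at 36 h. Both 48 h arrays lay far above both 36 h arrays, and the log2 difference was 1.91 ± 0.26 (SE; adjusted p = 0.0088). Cdk1, the kinase itself, had 2306 and 2856 at 48 h against 931 and 748 at 36 h, a difference of 1.56 ± 0.23 (adjusted p = 0.0104). Plk1, the Polo-like kinase that acts at centrosomes and kinetochores, had 997 and 1193 at 48 h against 292 and 268 at 36 h, a difference of 1.77 ± 0.26 (adjusted p = 0.0104). In neither kinase did the arrays of the 2 times overlap. Aurora A (Aurka), which matures the spindle poles, had 1027 and 1381 at 48 h against 377 and 299 at 36 h, a difference of 1.67 ± 0.32 (adjusted p = 0.0431). Cyclin A2 (Ccna2), which acts from S phase to early mitosis, missed the threshold at 1272 and 1745 against 542 and 442 (1.5 ± 0.30, adjusted p = 0.0572). The proliferation antigen Mki67 also missed it at 1.48 ± 0.32 (adjusted p = 0.0738). For Foxm1, a transcription factor of late cell cycle genes, the difference was 1.06 ± 0.46 (adjusted p = 0.544), and for Wee1, the kinase that holds Cdk1 inactive, it was -0.20 ± 0.32 (adjusted p = 0.895).

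The list of anaphase promotion and the spindle checkpoint held the largest rises among its 17 tested genes. Cdc20, the activator of the anaphase-promoting complex, had intensities of 3734 and 5033 at 48 h, against 702 and 710 at 36 h. This was a difference of 2.53 ± 0.28 (adjusted p = 0.00553), and a further probe set of Cdc20 gave 3.19 ± 0.28. Ube2c, the ubiquitin-conjugating enzyme that works with that complex, had 2241 and 3270 at 48 h against 508 and 485 at 36 h, a difference of 2.32 ± 0.30 (adjusted p = 0.00835). The 36 h arrays of both genes were nearly alike, and every 48 h array was more than 4 times as high. The subunits of the complex gave no such values, from -0.18 for Anapc4 to 0.15 for Anapc13, and the median of the list was 0.15. Mad2l1, a checkpoint protein that restrains Cdc20, had 1547 and 1152 at 48 h against 686 and 493 at 36 h and did not pass (1.12 ± 0.32, adjusted p = 0.235).

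At the kinetochore, where chromosomes attach to the spindle, 3 of 17 tested genes rose, 0 fell, and all 17 differences were above 0 (median 0.58). Among all 8453 genes tested 4794 differences were above 0. Birc5 (survivin), a subunit of the chromosomal passenger complex, had 1573 and 1546 at 48 h against 498 and 423 at 36 h, a difference of 1.65 ± 0.20 (adjusted p = 0.00835). Cenpa, the histone H3 variant that marks centromeres, had 837 and 1018 at 48 h against 201 and 245 at 36 h (1.81 ± 0.25, adjusted p = 0.0088). Cenpf, a large coiled-coil kinetochore protein, had 892 and 725 at 48 h against 264 and 230.1 at 36 h (1.5 ± 0.21, adjusted p = 0.0088), but a dimmer probe set of Cenpf gave 0.32 and was not called. On the probe sets printed, the 48 h arrays of all 3 genes lay above the 36 h arrays. Incenp, the scaffold of the passenger complex, gave 1.09 ± 0.30 without passing (adjusted p = 0.228).

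Of 21 tested spindle and motor genes 4 rose and 0 fell, and the median was 1.27. Kif20a, a kinesin of the central spindle, had 515 and 465 at 48 h against 101 and 95.1 at 36 h (1.82 ± 0.29, adjusted p = 0.0159). Prc1, which bundles antiparallel microtubules there, had 1104 and 1128 at 48 h against 297 and 308 at 36 h (1.71 ± 0.29, adjusted p = 0.0233), and its other tested probe set was called too. Stmn1 (stathmin), a microtubule destabiliser, was the brightest gene of the block, with 5176 and 5936 at 48 h against 2003 and 1579 at 36 h (1.61 ± 0.24, adjusted p = 0.0107). No array at 36 h reached the lowest 48 h value of these 3 genes. Tacc3, a spindle pole protein, was the dimmest, with 401 and 237 at 48 h against 82.6 and 56.0 at 36 h (1.54 ± 0.30, adjusted p = 0.0497). Hmmr had one of the largest differences, 2.13 ± 0.46, yet did not pass (adjusted p = 0.0738).

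**Figure D1:**
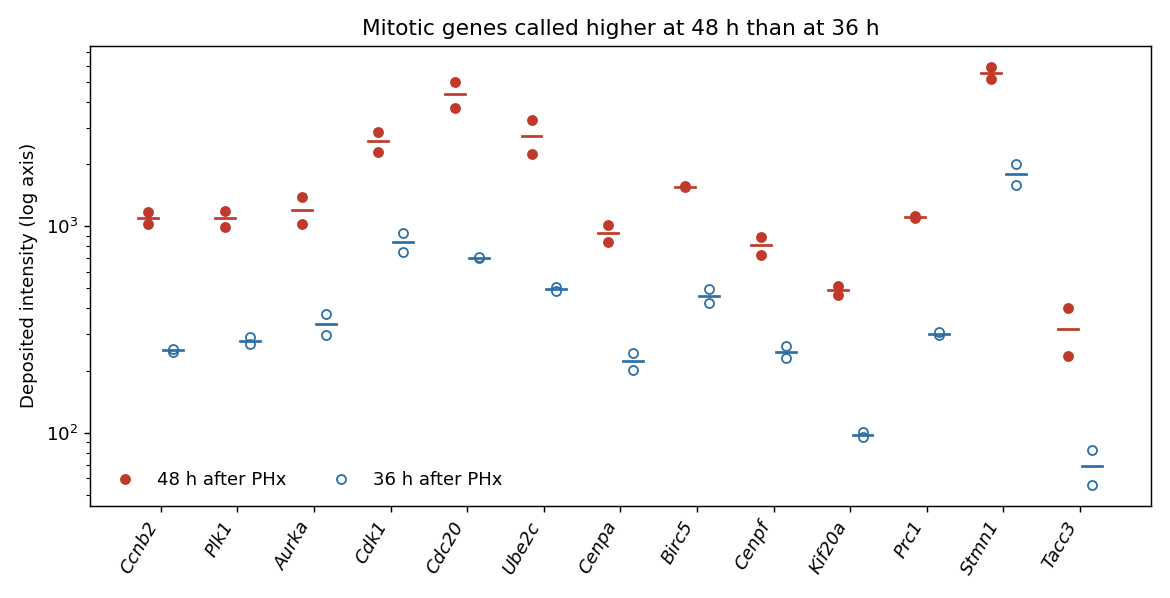
Deposited intensity (log axis) of the 13 called mitotic genes on each array, filled points for 48 h and open points for 36 h, with a bar at the mean of 2 arrays. Every 48 h point lies above both 36 h points of its gene, from Tacc3 at 237 to Stmn1 at 5936 at 48 h. No called probe set had arrays that overlapped, so this adds nothing to the calls.

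Across these 4 lists 13 of 75 tested genes rose (17.3%, beside 0.206% of all probe sets), and both 48 h arrays lay above both 36 h arrays in 59 of 75 (78.7%, beside 21.6% of all probe sets). Without the second 36 h array 0 of the 75 passed, while their median was 0.93 in place of 0.89. Cytokinesis, which follows, had 0 of 14 genes called (median 0.23), although Ect2, Racgap1 and Anln, which organise the contractile ring, gave 1.77, 1.51 and 1.46 with adjusted p of 0.066, 0.104 and 0.0666. A pair of called genes outside the lists belong to the same part of the cycle. Cdca3, a trigger of entry into mitosis that acts on Wee1, had 1671 and 2304 at 48 h against 462 and 456 at 36 h (1.97 ± 0.32, adjusted p = 0.0167), while a dimmer probe set of Cdca3 gave 0.25 and was not called. Psrc1, a microtubule-associated spindle protein, had 456 and 257 at 48 h and was not above background on either 36 h array (33.5 and 28.6), so it was at least 6.38-fold higher (adjusted p = 0.0303). The other tested probe set of Psrc1, at 1.42, was not called.

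The promoters of these genes were read for both elements that mark late cell cycle genes. CHR was searched as TTTGAA and the CCAAT box as CCAAT, each on both strands, from 250 bases before to 50 after the start of transcription in RefSeq (GRCm38.p6). Promoters were found for 11 of the 13 genes, and 9 of the 11 held both elements, with neither in Birc5 and Tacc3. Among 32851 promoters of that length CHR was present in 17.9%, CCAAT in 37.4% and both in 6.95%. Matches are letters in a window and do not show binding. The 4 promoters below, of Cdc20 (chr4:118437294-118437593, minus strand), Ccnb2 (chr9:70421505-70421804, minus strand), Cdk1 (chr10:69352863-69353162, minus strand) and Ube2c (chr2:164769679-164769978, plus strand), are shown because they belong to the activator, the kinase pair and the conjugating enzyme of the step. Capitals mark CHR and CCAAT matches.
Cdc20: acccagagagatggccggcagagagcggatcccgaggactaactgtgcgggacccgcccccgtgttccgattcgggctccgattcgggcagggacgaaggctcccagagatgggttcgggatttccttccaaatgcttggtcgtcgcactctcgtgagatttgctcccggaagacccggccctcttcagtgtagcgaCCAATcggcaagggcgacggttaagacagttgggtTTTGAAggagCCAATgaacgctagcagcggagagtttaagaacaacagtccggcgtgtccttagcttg
Ccnb2: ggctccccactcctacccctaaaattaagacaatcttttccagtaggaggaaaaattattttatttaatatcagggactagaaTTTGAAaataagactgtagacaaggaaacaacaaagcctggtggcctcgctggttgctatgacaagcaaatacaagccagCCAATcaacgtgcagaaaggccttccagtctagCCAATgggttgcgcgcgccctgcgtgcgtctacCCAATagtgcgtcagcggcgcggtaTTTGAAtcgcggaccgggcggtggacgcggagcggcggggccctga
Cdk1: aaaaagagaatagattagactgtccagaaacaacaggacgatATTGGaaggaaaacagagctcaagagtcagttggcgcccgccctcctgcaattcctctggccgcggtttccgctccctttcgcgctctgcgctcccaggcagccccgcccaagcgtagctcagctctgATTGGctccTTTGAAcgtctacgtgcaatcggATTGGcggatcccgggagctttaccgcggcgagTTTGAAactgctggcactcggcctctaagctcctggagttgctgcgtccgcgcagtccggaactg
Ube2c: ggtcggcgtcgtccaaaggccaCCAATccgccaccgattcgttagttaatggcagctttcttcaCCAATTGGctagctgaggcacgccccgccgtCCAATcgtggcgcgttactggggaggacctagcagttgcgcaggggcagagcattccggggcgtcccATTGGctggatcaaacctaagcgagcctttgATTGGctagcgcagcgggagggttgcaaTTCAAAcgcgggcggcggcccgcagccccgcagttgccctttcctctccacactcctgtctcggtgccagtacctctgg
In Cdc20 the CHR begins at base -18, counted from the start, after a CCAAT box at -53 and before one at -8. In Ccnb2 one CHR begins at 5, and 3 CCAAT boxes lie before it at -87, -54 and -21. In Cdk1 the CHR nearest the start is at -15, behind boxes at -80 and -48. In Ube2c the CHR reads on the other strand at -29, and a pair of its 6 CCAAT matches, at -186 and -183, overlap. Outside the lists, the promoter of Cdca3 held 1 CHR and 3 CCAAT matches. Psrc1 has 2 starts, which held 0 CHR matches each and 2 and 1 CCAAT matches.

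No gene of DNA replication passed the test. Of 18 tested genes of licensing and origin firing and 22 of DNA synthesis 0 passed in either direction, with medians of -0.02 and 0.20. Mcm6, a subunit of the MCM helicase, had 1128 and 1203 at 48 h against 1391 and 1373 at 36 h (-0.24 ± 0.41, adjusted p = 0.901). Pcna, the sliding clamp of the polymerases, had 3703 and 4179 at 48 h against 4356 and 4025 at 36 h (-0.09 ± 0.21, adjusted p = 0.937), and its arrays overlapped between the times. Rrm2, the regulated subunit of ribonucleotide reductase, had 2499 and 2936 at 48 h against 1722 and 1372 at 36 h (0.79 ± 0.25, adjusted p = 0.321), with no overlap but without passing. Nucleotide supply (0 of 16 called, median 0.25), histones (0 of 8, 0.32) and regulators of G1 and the G1/S transition (0 of 23, 0.15) gave no call either. Cyclin D1 (Ccnd1), which starts the cycle, had 2367 and 2881 at 48 h against 3659 and 3783 at 36 h (-0.50 ± 0.45, adjusted p = 0.794). A p that misses the threshold does not show that these genes were unchanged. Beside the name given to the step, S to mitosis, mitotic genes were called higher, and a fall of replication genes at 48 h was not detected by limma. The lists were chosen with earlier results of these data known, so their calls do not test the name. Transcript levels do not show how many cells were in mitosis. At an unadjusted p under 0.05 in limma, 2 licensing genes were higher at 48 h and 1 lower, and 2 genes of DNA synthesis were higher and 0 lower. Of all 8453 genes tested 382 were higher and 343 lower at that threshold, so these few genes do not set the replication lists apart.

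The 13 called mitotic genes were chosen for high values on the 48 h arrays, so their time course is only a description. The median over the 13 genes of the mean intensity was 91.2 in normal liver and, through the 6 times that end at 72 h, 121, 37.5, 40.3, 303, 1116 and 836. For the 40 replication genes the last 4 of these medians were 227, 425, 501 and 374. In the step before, which shares the 36 h arrays, 597 probe sets were called (4.4%), 3.09% higher at 36 h than at 12 h and 1.3% lower. Of the 40 replication genes 15 were called higher and 0 lower there, and of the 75 mitotic genes 17 higher and 1 lower. From 48 h to 72 h, which shares the 48 h arrays, 0 probe sets were called by limma in either direction, and 370 had an unadjusted p under 0.05.

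**Figure D2:**
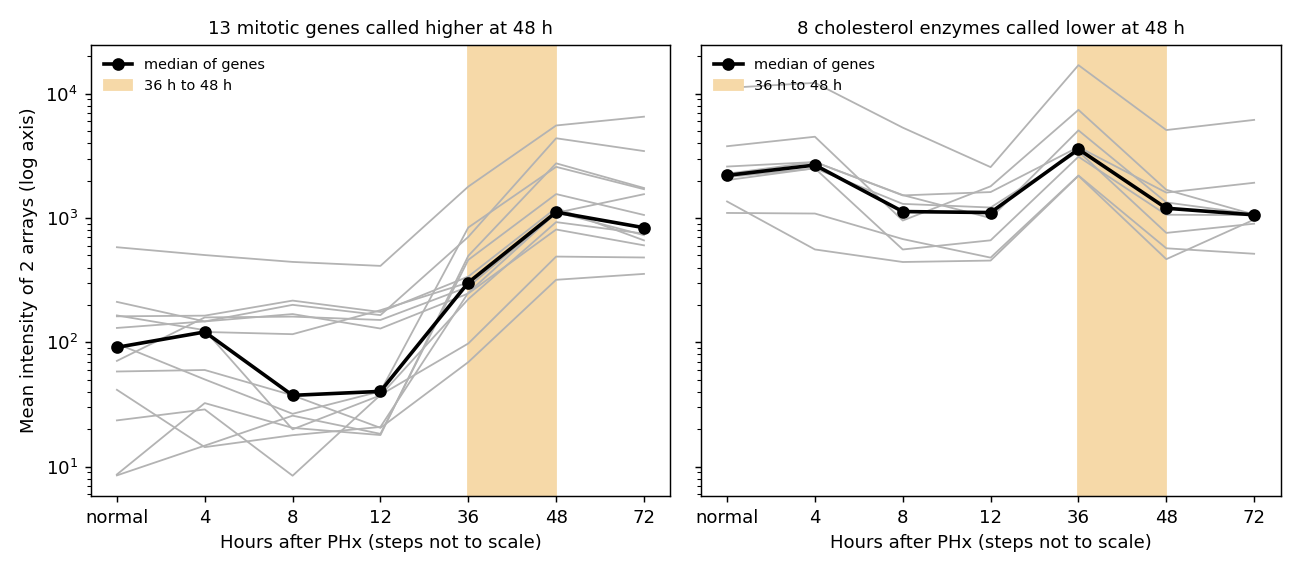
Mean intensity of 2 arrays (log axis) at 7 times for the 13 called mitotic genes (left) and the 8 called cholesterol enzymes (right), grey lines for genes and black for their median, with the step from 36 h to 48 h shaded. The genes were chosen on the 36 h and 48 h arrays. The mitotic median is 303 at 36 h and 1116 at 48 h, and the cholesterol median is 3580 at 36 h and 1199 at 48 h.

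The largest block of falls was cholesterol synthesis. Of 19 tested genes 8 fell (42.1%, beside 0.258% of all probe sets) and 0 rose, and the median was -1.19. Hmgcs1, the synthase that makes HMG-CoA at the head of the pathway, had 3751 and 6458 at 48 h, against 16763 and 17206 at 36 h. Even the higher 48 h array was well under both 36 h arrays, a difference of -1.77 ± 0.26 (adjusted p = 0.0104), and its 3 dimmer probe sets gave -1.44 to -1.41 and were not called. Idi1, which makes the isoprene unit that is joined into longer chains, had 1412 and 1258 at 48 h against 5006 and 5146 at 36 h (-1.88 ± 0.29, adjusted p = 0.0135), with -1.37 on a dimmer probe set that was not called. Fdft1, squalene synthase, had 883 and 1243 at 48 h against 3026 and 3203 at 36 h (-1.52 ± 0.23, adjusted p = 0.0114). These 3 enzymes stand before the first oxygen-dependent step.

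Of the enzymes from squalene onward 5 fell, by 1.19 to 2.15. Sqle, the epoxidase of that oxygen-dependent step and a second point of control, had 790.2 and 729 at 48 h against 3221 and 3648 at 36 h (-2.09 ± 0.28, adjusted p = 0.0088). Lss, which cyclises the product to lanosterol, had 602 and 331 at 48 h against 2245 and 2128 at 36 h (-2.15 ± 0.31, adjusted p = 0.00971). Both 36 h arrays of each gene were close together and more than 3 times as high as either 48 h array. Cyp51, lanosterol demethylase, had 638 and 504 at 48 h against 2388 and 2008 at 36 h (-1.85 ± 0.23, adjusted p = 0.00835). Msmo1, the sterol-4-methyl oxidase, had 2121 and 1256 at 48 h against 9480 and 5351 at 36 h (-2.09 ± 0.32, adjusted p = 0.0135). Nsdhl, the dehydrogenase that follows it, had 1670 and 1534 at 48 h against 3614 and 3839 at 36 h (-1.19 ± 0.20, adjusted p = 0.0231).

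Other genes of the pathway did not pass. Mvk, mevalonate kinase, at -1.58 ± 0.32 (adjusted p = 0.0555) and Hsd17b7 at -1.22 ± 0.25 (adjusted p = 0.066) missed the threshold narrowly. The late enzymes Ebp, Sc5d and Tm7sf2 gave 0.51, 0.14 and 0.09, and Srebf2, the gene of the factor SREBP-2, gave 0.53 ± 0.41 (adjusted p = 0.761). Synthesis of fatty acids had 0 of 27 genes called and a median of 0.03, and Srebf1, which drives it, had 2177 and 2884 at 48 h against 2079 and 2297 at 36 h. Without the second 36 h array 0 of the 19 cholesterol genes passed, while their median was -1.28.

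**Figure D3:**
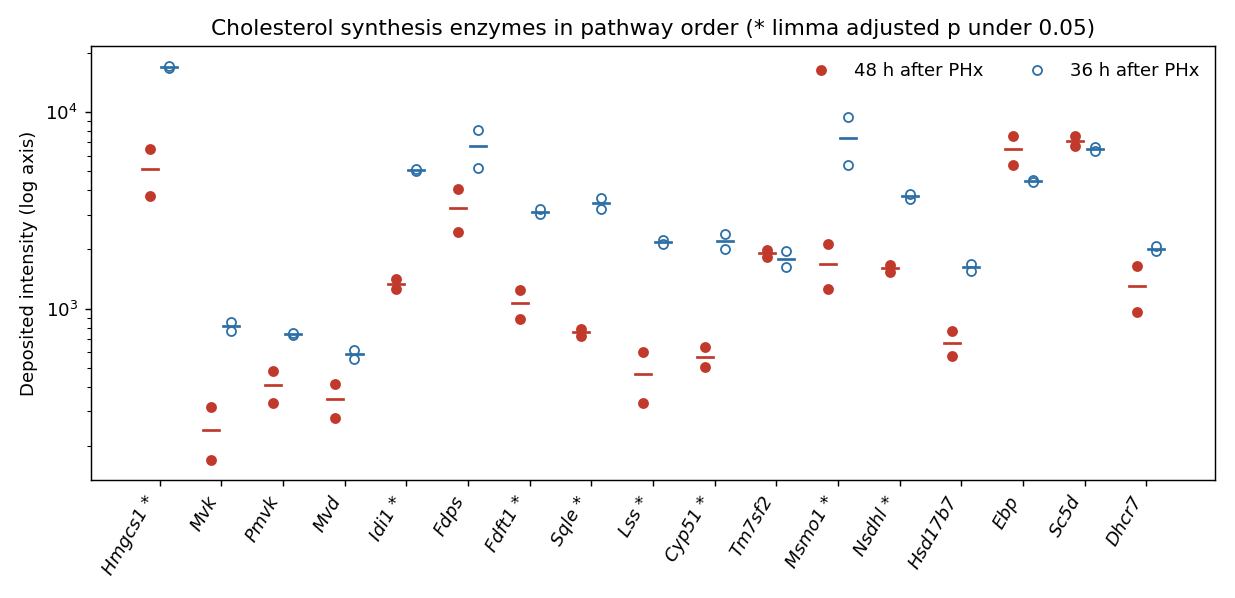
Deposited intensity (log axis) of the tested cholesterol synthesis enzymes in the order of the pathway, filled points for 48 h and open points for 36 h, with a bar at the mean of 2 arrays and a star at called genes. From Hmgcs1 to Fdft1 and from Sqle to Cyp51 the 48 h points lie under the 36 h points, while Ebp, Sc5d and Tm7sf2 do not show this.

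In the step from 12 h to 36 h, which shares the 36 h arrays, 14 of the 19 genes were called higher at 36 h (median 1.52). The median over the 8 called enzymes was 2205 in normal liver and, through the same 6 times, 2669, 1128, 1108, 3580, 1199 and 1061. These 8 were chosen for high 36 h and low 48 h values, so the course describes them and supports nothing further.

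Promoters were found for 6 of the 8 enzymes, and all 6 held a CCAAT box, beside 37.4% of all promoters, while 0 held CHR. The sterol regulatory element, searched as TCACNCCAC on both strands (1.24% of all promoters), was present in Hmgcs1 only. The promoters of Hmgcs1 (chr13:119690101-119690400, plus strand) and Idi1 (chr13:8885356-8885655, plus strand) are shown as one with and one without these letters, with sterol element and CCAAT matches in capitals.
Hmgcs1: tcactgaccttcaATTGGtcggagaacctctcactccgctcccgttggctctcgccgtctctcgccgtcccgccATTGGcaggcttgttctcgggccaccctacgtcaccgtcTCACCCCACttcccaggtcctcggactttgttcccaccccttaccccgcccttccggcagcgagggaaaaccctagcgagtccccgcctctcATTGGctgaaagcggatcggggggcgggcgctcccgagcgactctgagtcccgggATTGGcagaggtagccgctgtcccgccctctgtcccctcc
Idi1: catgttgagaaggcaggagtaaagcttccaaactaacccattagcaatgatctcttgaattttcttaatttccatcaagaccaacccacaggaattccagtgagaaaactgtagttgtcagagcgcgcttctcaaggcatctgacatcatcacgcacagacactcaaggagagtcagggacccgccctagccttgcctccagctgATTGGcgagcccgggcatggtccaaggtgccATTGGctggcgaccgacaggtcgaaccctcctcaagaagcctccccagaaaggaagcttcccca
In Hmgcs1 the sterol element begins at base -137 and the nearest CCAAT box before the start at -45, and in Idi1 the boxes begin at -45 and -14. No match says only that the letters are not in this window.

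The steepest fall of all was Sult1e1, the sulfotransferase that inactivates estrogens. It had 33.7 and 19.1 at 48 h, neither above background, against 1641 and 2298 at 36 h, so it was at least 23.4-fold lower at 48 h (adjusted p = 0.00416). In the list of growth-hormone-dependent and male-biased genes it was the 1 of 23 tested genes that was called, and the median of that list was 0.29. Its intensities at earlier times were 19.4 and 6.0 in normal liver, 23.8 and 12.3 at 4 h, 324 and 400.2 at 8 h, and 675 and 1308 at 12 h, and at 72 h they were 22.2 and 236. The 36 h arrays were thus the highest of the series, and the 48 h arrays were close to those of normal liver.

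Called falls in other lists were 1 or 2 a list. Cidec, a protein that fuses lipid droplets and was listed as an adipose marker, had 79.6 and 57.9 at 48 h, neither above background, against 729 and 533 at 36 h, at least 7.51-fold lower at 48 h (adjusted p = 0.0104). Plin5, a droplet coat protein of oxidative tissues that is in no list and is named after its values were seen, had 419 and 490 at 48 h against 1043 and 1116 at 36 h (-1.16 ± 0.21, adjusted p = 0.0339). Neither gene overlapped between the times. Fgf21, a hormone that liver releases in fasting, had 50.6 and 101 at 48 h, with 1 array above background, against 500.1 and 684 at 36 h (-2.30 ± 0.35, adjusted p = 0.0112). Angptl4, an inhibitor of lipoprotein lipase, had 923 and 1055 at 48 h against 2292 and 2480 at 36 h (-1.23 ± 0.20, adjusted p = 0.0167). Fgf21 and Angptl4 were the 2 called of 25 tested genes of the glucocorticoid and fasting response, whose median was -0.61. Igfbp1, a fasting-induced binding protein, had 1989 and 2237 at 48 h against 6196 and 9172 at 36 h but did not pass (-1.81 ± 0.48, adjusted p = 0.183). They were also the 2 called of 29 genes of fatty acid oxidation and ketogenesis, whose median was -0.09.

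Clock output fell in 1 gene. Dbp, a transcription factor that is a direct target of the circadian clock, had 262 and 208 at 48 h against 908 and 844 at 36 h (-1.68 ± 0.25, adjusted p = 0.0104), and a dimmer probe set gave -1.42 without passing. Of 21 tested clock and output genes 1 fell and 0 rose, and the median was -0.58. Noct, a rhythmic phosphatase, missed the threshold (-1.26 ± 0.25, adjusted p = 0.0524), as did the repressor Per1 (-1.17 ± 0.51, adjusted p = 0.552). Arntl, an activator of the clock whose phase is opposite to that of Dbp, had 386 and 261 at 48 h against 101 and 138 at 36 h (1.10 ± 0.47, adjusted p = 0.541). Nr1d1, also a clock gene, did not go the way of Dbp. It had 584 and 678 at 48 h against 347.5 and 271 at 36 h, without passing (0.91 ± 0.39, adjusted p = 0.541). Of the 21 differences of the list 17 were below 0 and 4 above, beside 3659 below and 4794 above among all 8453 genes tested. The times lie 12 h apart, and the part of time of day in the step cannot be told apart from that of time after surgery.

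**Figure D4:**
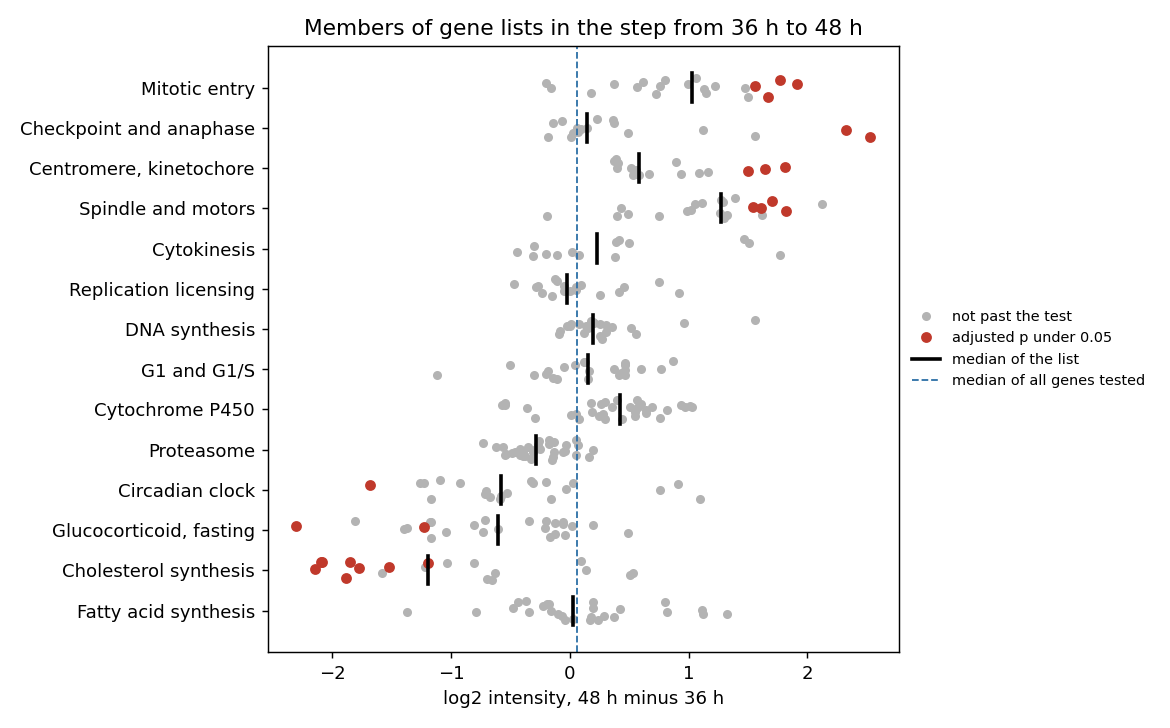
Log2 difference of intensity, 48 h minus 36 h, of each tested member of 14 gene lists, 1 row a list, with called genes in red, the median of each list as a black bar and the median of all genes (0.06) as a dashed blue line. The called genes of the 4 mitotic lists lie to the right and those of cholesterol synthesis to the left, and replication licensing is centred on the dashed line.

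Other called falls came from several lists, 1 gene each. Ier3, an immediate-early survival gene, had 144 and 108 at 48 h against 609 and 557 at 36 h (-1.81 ± 0.23, adjusted p = 0.00835). Il1r1, the receptor of interleukin 1, had 257 and 278 at 48 h against 841 and 1101 at 36 h (-1.65 ± 0.24, adjusted p = 0.00971). Psat1, an enzyme of serine synthesis, had 73.4 and 126 at 48 h against 399 and 502 at 36 h (-1.71 ± 0.28, adjusted p = 0.0167). Cbr1, a carbonyl reductase of the NRF2 response, had 1516 and 2175 at 48 h against 4501 and 4857 at 36 h (-1.34 ± 0.24, adjusted p = 0.0329). Like every called probe set, none of these 4 overlapped between the times. They were the 1 called member of 30 immediate-early, 32 acute phase, 39 amino acid and 25 NRF2 genes, with list medians of 0.01, 0.02, 0.20 and -0.25. Mrap, an accessory protein of the melanocortin 2 receptor, had 869 and 1039 at 48 h against 3292 and 4603 at 36 h (-1.97 ± 0.35, adjusted p = 0.0329), and the uncharacterised gene 1810055G02Rik fell by 2.06 ± 0.28 (adjusted p = 0.0088).

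Called genes outside both the lists and the naming rule are given here after their values were seen. Slc25a30, a mitochondrial carrier, fell on 3 probe sets, by 1.33 to 1.51. Nampt, the rate-limiting enzyme of NAD salvage, had 556 and 452 at 48 h against 1095 and 1310 at 36 h (-1.17 ± 0.21, adjusted p = 0.0329), while a dimmer probe set of Nampt gave -0.23 and was not called. Itih5, a secreted matrix-associated protein, fell by 1.34 ± 0.25 (adjusted p = 0.0426). Among rises, the chemokine Ccl9 had 3560 and 4116 at 48 h against 1581 and 1601 at 36 h (1.24 ± 0.20, adjusted p = 0.0173). The transporters Slc22a7, for organic anions, and Slc3a1, for cystine, rose by 1.43 ± 0.26 (adjusted p = 0.0339) and 1.37 ± 0.22 (adjusted p = 0.0159). Iqgap3, a scaffold protein, rose by 1.12 ± 0.22 (adjusted p = 0.0491) and D17H6S56E-5 by 2.43 ± 0.34 (adjusted p = 0.0088), with 1.19 on its brighter probe set, which was not called.

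Rises outside the cell cycle were few. Hsd3b1, a steroid dehydrogenase, had 571 and 563 at 48 h against 64.5 and 93.3 at 36 h (2.21 ± 0.42, adjusted p = 0.0449), and it had 110 and 138 at 72 h. Car3, carbonic anhydrase 3, abundant in male liver and adipose tissue, had 12265 and 17373 at 48 h against 6765 and 6276 at 36 h (1.16 ± 0.22, adjusted p = 0.0425), and a dimmer probe set gave 1.47 without passing. Its normal liver arrays read 30581 and 32905, so the 48 h level was still below them. Prtn3, proteinase 3 of neutrophil granules, had 373 and 529 at 48 h against 73.4 and 89.3 at 36 h (1.86 ± 0.29, adjusted p = 0.0132).

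Marker lists were read for cells other than hepatocytes. In bulk RNA fewer cells of a type and less RNA per cell cannot be told apart. Hepatocyte markers gave 0 of 13 called (median 0.18), Kupffer cell 0 of 19 (-0.01), endothelium 0 of 17 (-0.01), stellate cell 0 of 23 (0.25), lymphocyte 0 of 6 (0.10) and erythroid markers 0 of 7 (0.11). Prtn3 was the 1 called of 11 neutrophil markers, while the summed level of that list was 13495 and 13935 at 48 h against 30424 and 30077 at 36 h. Lcn2, which hepatocytes also make in the acute phase, gave most of that sum, and S100a8 had 144 and 145 at 48 h against 240 and 820 at 36 h. Cd24a, a surface protein of cholangiocytes and progenitors, had 159 and 93.8 at 48 h against 514 and 671 at 36 h (-1.84 ± 0.24, adjusted p = 0.00858) on the brighter of 2 called probe sets, and it was 1 of 6 tested markers of its list (median -0.79). Krt8 and Krt18, keratins that hepatocytes share with those cells, gave -1.27 and -0.74 without passing (adjusted p = 0.316 and 0.501). Cidec and Car3 were the called pair of 6 adipose markers, 1 in each direction. The part of these cells in the results was not tested.

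Another pair of times, 72 h and 12 h, which equal 48 h and 36 h in hours modulo 24 although no time of day is given, shares no array with the step and lies 24 h outside it on both sides. Between them 923 probe sets were called (6.8%), 4.15% higher at 72 h than at 12 h and 2.64% lower. Of the 28 called higher at 48 h 23 were called higher there and 1 lower, and of the 35 called lower at 48 h 15 were called lower and 1 higher. The difference of the 2 steps was tested directly and called 124 probe sets (0.913%), 0.243% of all higher and 0.67% lower, among them 21 of the 63. This test reuses the 36 h and 48 h arrays on which the 63 were called. The interval from 12 h to 72 h contains the step, so a gene that rises throughout differs more over it. The second arrays at 12 h and 72 h had low pyruvate carboxylase ratios (0.091 and 0.137), as the second 36 h array did. For 5 of the 13 called mitotic genes the step from 36 h to 48 h was the smaller one by this test, which is only a description. Cdk1 differed by 1.56 from 36 h to 48 h and by 4.18 from 12 h to 72 h, a difference of -2.62 ± 0.32 (adjusted p = 0.0103), and its 12 h arrays read 36.1 and 44.5. Likewise Ccnb2 (-2.47 ± 0.37, adjusted p = 0.0169), Birc5 (-2.24 ± 0.29, adjusted p = 0.0103), Stmn1 (-2.21 ± 0.34, adjusted p = 0.0169) and Ube2c (-2.27 ± 0.42, adjusted p = 0.0299) were called, while Plk1 (-0.32 ± 0.37, adjusted p = 0.75), Prc1 (-0.03 ± 0.41, adjusted p = 0.99) and Aurka (0.04 ± 0.45, adjusted p = 0.98) did not pass.

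For the called cholesterol enzymes the difference of the 2 steps was negative, as for the mitotic genes called in it, while the step itself was a fall. The 8 called ones were chosen for high 36 h and low 48 h values, which favours a negative difference in this test. By its terms the difference is the steps from 12 h to 36 h and from 48 h to 72 h, added and reversed in sign. For every gene, mitotic ones included, it therefore restates those neighbouring steps and is no separate support. Lss differed by -2.15 in the step and by 1.04 from 12 h to 72 h, a difference of -3.18 ± 0.43 (adjusted p = 0.0103). Hmgcs1 gave -3.02 ± 0.37 (adjusted p = 0.0103), Fdft1 -2.15 ± 0.33 (adjusted p = 0.0169), Idi1 -2.07 ± 0.41 (adjusted p = 0.0388), Cyp51 -1.94 ± 0.32 (adjusted p = 0.0215) and Nsdhl -1.43 ± 0.28 (adjusted p = 0.0377). The called enzymes Sqle (-1.76, adjusted p = 0.0659) and Msmo1 (-1.36, adjusted p = 0.225) did not pass. In all, 8 of the 19 genes were called lower in this test, the other two being Mvk (-3.14) and Sc5d (-1.85), which were not called in the step itself, and from 12 h to 72 h the median of the 19 was 0.24, with 4 called higher and 1 lower. Dbp, with -1.68 in the step and 0.57 from 12 h to 72 h, was called as well (-2.25 ± 0.35, adjusted p = 0.0169). Car3 moved the opposite way in the 2 steps, 1.16 and -1.16, a difference of 2.32 ± 0.31 (adjusted p = 0.0103). Sult1e1 (-1.87 ± 0.69, adjusted p = 0.271) and Cidec (1.5 ± 0.51, adjusted p = 0.226) were lower at the later time in both pairs and were not called in the difference.

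**Figure D5:**
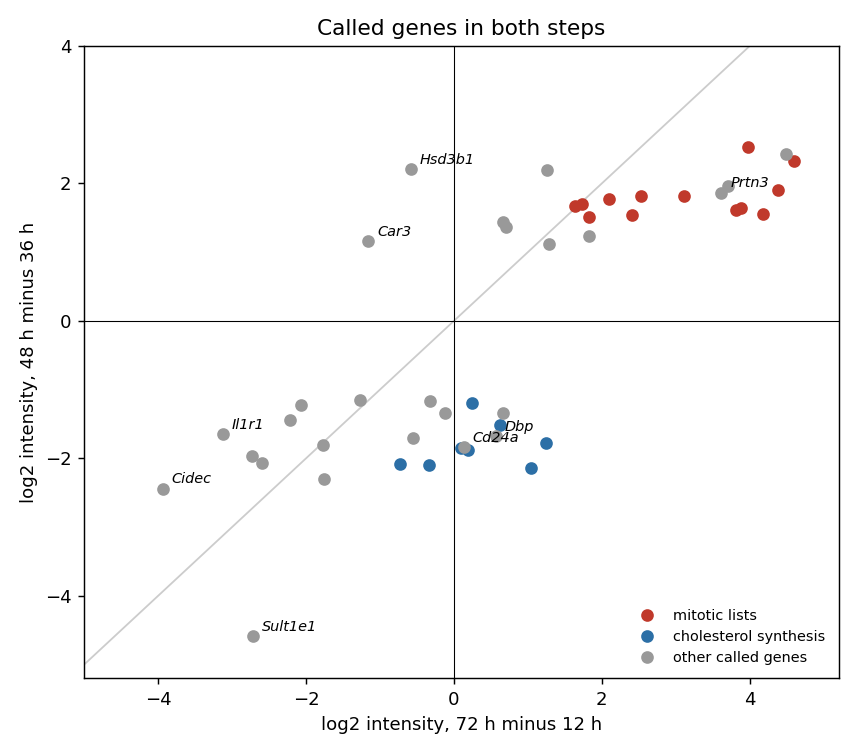
Log2 difference of intensity from 36 h to 48 h (vertical axis) against that from 12 h to 72 h (horizontal axis) for the called genes with 1 symbol, mitotic genes in red, cholesterol enzymes in blue and others in grey, with the line of equal change. Mitotic genes lie near or under that line at the upper right, cholesterol enzymes between -0.73 and 1.25 on the horizontal axis, and Car3 and Hsd3b1 alone at the upper left.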

How the data were processed

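The deposited table gives 1 linear intensity per probe set and array, 0 of them negative. GeneSpring 7.2 is named by the design text for selecting genes, and no source used here names the step that made the intensities. The mean of each array without its 2 percent dimmest and brightest values was 500.2 to 500.3, which shows a common scaling in the deposited intensities.

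Gene names came from the array's annotation. Of 22626 probe sets other than controls, 20380 had 1 symbol, 691 several and 1555 none. Intensities became log2(intensity + 57), 57 being the 25th percentile. The test took probe sets whose mean over all arrays was not under 128.8, the 40th percentile. A linear model of all 14 arrays in 7 groups was fitted in limma 3.58.1 (R 4.3.3), and p-values were adjusted by Benjamini-Hochberg over 13576 probe sets in each contrast, at 0.05. Fold changes of dim probe sets are understated by the added 57. Differences are given with the standard error (SE) of the fit, for 2 arrays against 2. On each array the background was set at the 95th percentile over 27 bacterial controls. A gene above it on no array of a time is given a bound (at least N-fold) in place of a fold. A list takes the brightest probe set of each gene.

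The naming rule took the 12 largest called rises and falls of genes whose arrays did not overlap. It also took up to 4 called members of each of 47 lists and 32 tested landmark genes. Not all of these landmarks are printed. Members and lists were chosen with earlier results of these data known. Arrays of the same replicate number did not deviate together (r = -0.16 across probe sets), so the numbers were not used as pairs. Alternatives were other scaling, pseudocounts, filters, variance models, blocks, probe set rules and each array left out. In data simulated with this design, limma called 26% of the 100 probe sets given a log2 change of 1, 79% of the 100 given a change of 2, and 4 that were given none. The simulated noise was independent between probe sets and held no array of low quality, so these values may not hold for the real arrays. Promoters are from RefSeq (GRCm38.p6).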

Additional observations from a re-analysis of the deposited data

How the results depend on the processing

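The number of called probe sets was sensitive to the settings. Every called probe set kept its sign wherever it was fitted, but none had arrays that overlapped between the times. Leaving out arrays or changing the pseudocount, filter or variance model therefore could not reverse a sign, and the kept signs do not measure stability. The count of 63 (28 higher, 35 lower) became 38 with a pseudocount of 14.25 (14 higher), 120 with one of 228 (60 higher, 60 lower), and 406 at 2-fold without a test (178 higher, 228 lower). It became 1 (0 higher, 1 lower) without the 4 arrays of low pyruvate carboxylase ratio, which leaves 1 array at 36 h, and 1 (0 higher, 1 lower) with only the 4 arrays of the comparison. With an intensity trend 54 were called lower. With the arrays of low pyruvate carboxylase ratio as a block 63 were called, 49 of them among the 63 of the main setting. Leaving out 1 array at a time gave 1 to 117 calls, 1 to 47 higher and 0 to 70 lower. Fewest were called without 36 h replicate 2 (1), 48 h replicate 2 (3) or 48 h replicate 1 (19), and most without either 12 h array (117). Without 36 h replicate 1, 16 were called higher and 64 lower, and without either 4 h array 22 lower. Among 36 called named genes, by the brightest probe set of each, quantile scaling kept 36 and the fit without 36 h replicate 2 kept 0 (its 1 call is a further probe set of Cdc20); a lone array is taken to vary like the other groups. The 124 calls of the difference of steps became 198 with a pseudocount of 228, 72 with no filter, 191 with a filter at the 60th percentile, 3 without the 4 arrays and 82 with probe sets averaged per gene, and 5 to 428 with 1 array left out. The replicate number as a block gave 78 calls in the step and 125 in the difference of steps. The crossed pairing as a block, chosen after seeing the data, gave 61 and 86. The cause of these changes was not tested, apart from fewer arrays or genes where a setting leaves them out. The number of arrays and, for dim probe sets, the background limit what can be seen.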

Other observations

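Outside both main blocks, 31 of the 47 gene lists had no called member. Cytochrome P450 genes of families 1 to 4, which carry out oxidation of drugs, steroids and fatty acids, had 0 of 34 called, with a median log2 difference of 0.42 beside 0.06 for all genes tested. Both 48 h arrays lay above both 36 h arrays in 22 of these 34 genes, beside 1858 of all 8453 genes tested and 21.6% of all probe sets. Cyp2c70, which makes muricholic acids in mice, had intensities of 13095 and 18539 at 48 h against 7981 and 7270 at 36 h (1.03 ± 0.25, limma adjusted p = 0.131), and Cyp3a11, a drug-metabolising enzyme, had 24402 and 31077 at 48 h against 20946 and 16586 at 36 h (0.56 ± 0.22, adjusted p = 0.491). Coagulation and complement genes had 0 of 34 called and a median of 0.35. Subunits of the proteasome had 0 of 34 called and a median of -0.28. Both 48 h arrays lay below both 36 h arrays in 22 of the 34, beside 1577 of all 8453 genes tested and 18.4% of all probe sets. Ribosome biogenesis factors had 0 of 34 called and a median of -0.23. Subunits of oxidative phosphorylation had 0 of 49 called and a median of 0.00.

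Cyp7a1, the hydroxylase that starts bile acid synthesis from cholesterol, had 1049 and 1142 at 48 h against 1360 and 1259 at 36 h (-0.25 ± 0.30, adjusted p = 0.853). It was 3104 and 2148 at 72 h against 191 and 308 at 12 h, and the difference of the 2 steps was -3.38 ± 0.42 (adjusted p = 0.0103). Tnfrsf12a, the receptor of the cytokine TWEAK, had 115 and 284 at 48 h against 3303 and 383 at 36 h, with the 36 h arrays far apart (-2.33 ± 0.72, adjusted p = 0.304); it is named after its values were seen.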
